A study of Mus musculus with 4 samples.

Results

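The genes described here are 10 genes of the B lymphocyte lineage and of antigen receptor gene recombination: Rag1, Rag2, Dntt, Ebf1, Pax5, Vpreb1, Igll1, Cd79a, Cd79b and Blnk. They were chosen by name with earlier results of these data known, and each matched 1 of the 34315 features in the deposited count table. The mRNA came from haematopoietic stem cells (HSCs), sorted from mouse bone marrow as side population cells with the KSL-CD150+ surface phenotype. The arm labelled Dnmt3a-KO, called the knockout arm below, enters only through values in the authors' deposited table, namely a mean count over 4 libraries, a log2 fold change and an adjusted p. The labels name no allele, no means of deletion and no age of the animals. It is set against 4 wild-type libraries from C57BL/6 mice. Per the labels all 4 are repeat libraries of biological replicate 1, although the series design speaks of duplicates, so every spread below is one between libraries and may be technical.

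B cells are made in the bone marrow from HSCs through lymphoid progenitors. In those progenitors the Rag1 and Rag2 proteins cut the antigen receptor loci, and terminal transferase, made by Dntt, adds bases at the joins before end-joining enzymes seal them. The transcription factors Ebf1 and Pax5 set and hold B cell identity. Vpreb1 and Igll1 form the surrogate light chain of the pre-B cell receptor, Cd79a and Cd79b are its signalling chains, and Blnk is the adaptor that links the receptor to downstream enzymes. HSCs sit upstream of all of these steps, and low levels of some lymphoid transcripts are known in early multipotent cells.

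In the knockout arm, 4 of the 10 genes fell and 0 rose (the authors' deposited table, adjusted p under 0.05). By the labels the wild-type libraries repeat the same biological replicate, so the authors' adjusted p may not cover variation between animals. The genes that fell were Rag1 and Dntt of the recombination machinery, Vpreb1 of the surrogate light chain and the adaptor Blnk. Over all 21778 features that the authors tested, 3.7% were called lower and 3.15% higher. At a stricter adjusted p of 0.01, Rag1 and Dntt were still called, which is 2 of the 10 genes, where 1.78% of all tested features were called lower. The log2 fold change was negative for 9 of the 10 genes and positive for Cd79a, where 54.1% of all tested features had a negative one. The median over the 10 genes was -2.14 in the authors' deposited table, and the median over all tested features was -0.10. Since the genes were chosen with earlier results known, setting them beside all features is a description and not a test. The sorted cells were measured in bulk, so fewer cells with such a transcript and less of it per cell cannot be told apart.

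These transcripts were scarce. The 10 genes together drew 5635 reads over the 4 wild-type libraries, which is 0.0032% of all counts, and Cd79b alone held 81.5% of them. Library totals ran from 40709659 to 47408552 counts, so with 3 counts as the floor, a library with 0 reads leaves room for a level of at most 0.0737 CPM. The wild-type libraries formed 2 pairs, 1 with 2 and 3 with 4. Within a pair the libraries differed far less than between pairs, though by more than counting noise alone, and each pair was counted as 1 sample in any mean ± SD. Below, a normalised count is a read count divided by the library's size factor, and the knockout mean is put on the same scale. Only 6 of the 10 genes reached a mean of 10 normalised counts over both arms, and Rag2, Ebf1, Pax5 and Igll1 did not.

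**Figure D1:**
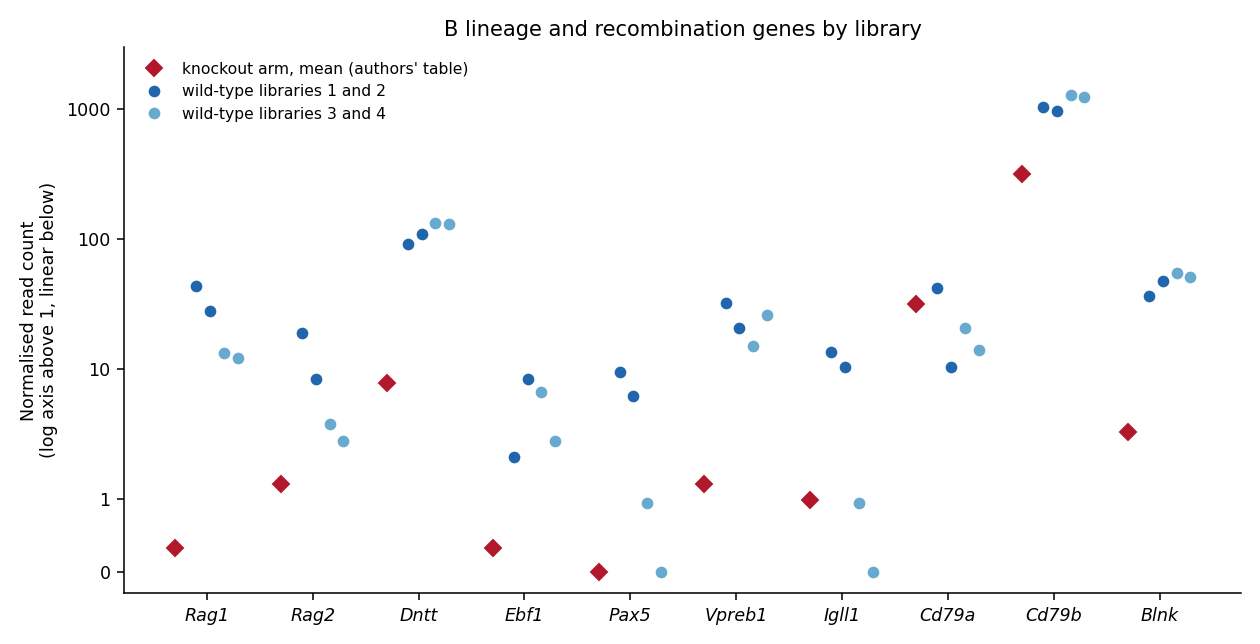
Normalised read counts of each gene (vertical axis, logarithmic above 1 and linear below) in the knockout arm (red diamond, the authors' mean over 4 libraries, without a spread) and in the 4 wild-type libraries (blue circles, dark for libraries 1 and 2, light for libraries 3 and 4). The knockout mean lies below all 4 wild-type libraries for 7 of the 10 genes, the exceptions being Pax5, Igll1 and Cd79a.

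The promoters of the 4 genes that fell are shown first, with that of Cd79a, the gene with a positive log2 fold change, for comparison. Each window runs from 250 bases before to 50 after the gene's start, in the direction of the gene, from RefSeq on build GRCm38.p6. Capitals mark E-boxes (CANNTG, the letters bound by the E proteins that act in lymphoid cells), the Ikaros core (TGGGAA) and the octamer (ATGCAAAT, bound by Oct factors).
Rag1, chr2:101649483-101649782, minus strand: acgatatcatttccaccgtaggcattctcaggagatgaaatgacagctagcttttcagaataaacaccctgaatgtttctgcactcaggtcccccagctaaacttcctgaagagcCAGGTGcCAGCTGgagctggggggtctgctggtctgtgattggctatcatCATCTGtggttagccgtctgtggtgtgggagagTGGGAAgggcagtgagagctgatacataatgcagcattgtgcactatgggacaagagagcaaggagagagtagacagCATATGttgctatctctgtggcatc
Dntt, chr19:41029025-41029324, plus strand: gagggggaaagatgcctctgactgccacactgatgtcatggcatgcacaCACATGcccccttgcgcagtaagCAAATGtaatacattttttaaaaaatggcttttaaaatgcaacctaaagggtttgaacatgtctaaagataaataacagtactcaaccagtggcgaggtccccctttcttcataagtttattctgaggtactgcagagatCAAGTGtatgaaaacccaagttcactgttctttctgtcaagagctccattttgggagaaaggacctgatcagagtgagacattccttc
Vpreb1, chr16:16869206-16869505, minus strand: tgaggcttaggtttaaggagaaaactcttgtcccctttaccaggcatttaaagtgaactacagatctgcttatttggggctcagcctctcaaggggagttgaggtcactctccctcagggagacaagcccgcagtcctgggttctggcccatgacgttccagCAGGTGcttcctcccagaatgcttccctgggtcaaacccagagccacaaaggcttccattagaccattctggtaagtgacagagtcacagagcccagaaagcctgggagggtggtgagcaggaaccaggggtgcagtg
Blnk, chr19:40994172-40994471, minus strand: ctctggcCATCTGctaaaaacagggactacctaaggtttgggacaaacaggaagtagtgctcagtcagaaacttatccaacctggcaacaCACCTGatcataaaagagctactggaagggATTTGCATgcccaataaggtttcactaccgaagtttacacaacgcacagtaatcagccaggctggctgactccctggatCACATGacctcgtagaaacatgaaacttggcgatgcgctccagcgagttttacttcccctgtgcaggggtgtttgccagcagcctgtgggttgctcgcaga
Cd79a, chr7:24897247-24897546, plus strand: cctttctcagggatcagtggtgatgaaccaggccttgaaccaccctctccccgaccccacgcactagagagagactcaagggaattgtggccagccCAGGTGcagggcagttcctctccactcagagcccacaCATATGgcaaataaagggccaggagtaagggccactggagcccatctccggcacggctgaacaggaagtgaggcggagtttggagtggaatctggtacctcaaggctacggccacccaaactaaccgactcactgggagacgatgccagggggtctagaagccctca
The promoter table held 9 of the 10 genes, all but Cd79b, in 10 windows, since Ebf1 has 2. An E-box in either strand stood in 9 of these 10 windows, against 72.3% of all 32851 promoter windows. The Ikaros core stood in 2 of the 10, against 25.6% of all windows, and the octamer in 1, that of Blnk, against 1.74%. The inner letters of the EBF site (CCCNNGGG) stood in 1 of the 10 windows, that of Igll1, against 13.7% of all windows. The TATA box (TATAAA, 13.6% of all windows) was in 0 of the 10. None of the motifs searched shared bases with another in the windows printed. Since DNA methylation acts at CpG pairs, these were counted too. The windows of the 9 genes held 2 to 23 CpG pairs with a median of 5, against a median of 7 over all windows. Dntt, Vpreb1 and Igll1 had 2 each, Rag1 and Rag2 had 3 each, Blnk had 7 and Cd79a had 8. The transcription factor genes had more, with 9 and 17 in the windows of Ebf1 and 23 in that of Pax5, more than 78.5% of all windows. A match in these letters is a description of the window and not a bound site.

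Of the recombinase genes, Rag1 was called and Rag2 was not. Rag1, the catalytic subunit of the recombinase (chromosome 2, 101478411 to 101489689 in mm9), stood at 0.330 normalised counts in the knockout arm, which is 1 read over its 4 libraries, against 44.2, 28.3, 13.4 and 12.2 in wild-type libraries 1 to 4. All 4 wild-type libraries were above the knockout mean, and libraries 1 and 2 were above libraries 3 and 4. Rag1 fell by 4.10 on the log2 scale (the authors' deposited table, adjusted p 0.00933). The plain ratio was 74.3-fold lower, with an exact 95% counting interval of 12.7-fold to 2892-fold. It was 38.8-fold lower against libraries 3 and 4 alone, with an interval of 6.39 to 1587, and 109.9-fold lower against libraries 1 and 2 alone. The deposited fold is smaller, at 17.2-fold. In 7409 low-count features, the authors' log2 fold changes were best matched by a ratio with about 1.21 normalised counts added to each mean. That number was fitted here, with an SD of 0.095 about it on the log2 scale. Such an addition draws the ratio of a scarce transcript towards no change, and the deposited 17.2-fold lies within the counting interval of the plain ratio.

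Rag2, the partner subunit (chromosome 2, 101464905 to 101472685 in mm9), had 4 reads in the knockout arm, or 1.32 normalised counts, against 18.9, 8.37, 3.82 and 2.82 in wild-type libraries 1 to 4. The knockout mean lay below every wild-type library, but by little for libraries 3 and 4. Its log2 fold change of -1.99 was not called (the authors' deposited table, adjusted p 0.427). The plain ratio was 6.44-fold lower, with a counting interval of 2.22 to 24.2. Against libraries 3 and 4 alone it was 2.52-fold lower, with an interval of 0.639 to 11.7 that includes no change. The feature B230118H07Rik on the opposite strand covers 4239 bases of the Rag2 span. TruSeq RNA libraries of this kind carry no strand mark, so the reads of both features may not be separable there.

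Dntt (chromosome 19, 41103765 to 41134015 in mm9), the polymerase that diversifies the joins, stood at 7.91 normalised counts in the knockout arm, against 92.6, 111, 134 and 132 in wild-type libraries 1 to 4. The wild-type values lay close together and all were far above the knockout mean. Dntt fell 12.04-fold (the authors' deposited table, adjusted p 0.00376), and its adjusted p was the lowest of the 10 genes. With 24 reads in the knockout arm, its plain ratio had the narrow counting interval of 9.92-fold to 23.6-fold lower.

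Both B lineage transcription factors were near the limit of detection. Ebf1, which opens the B cell programme (chromosome 11, 44431636 to 44818674 in mm9), had 1 read in the knockout arm, or 0.330 normalised counts, against 2.10, 8.37, 6.68 and 2.82 in wild-type libraries 1 to 4. The knockout mean lay below all 4 wild-type libraries, as it did for 37.9% of all tested features. The wild-type values rest on 20 reads in all. The plain ratio was 15.2-fold lower, with a counting interval of 2.41 to 626, and the log2 fold change of -2.15 was not called (the authors' deposited table, adjusted p 0.373).

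Pax5, which keeps B cells committed (chromosome 4, 44544378 to 44723312 in mm9), had 0 reads in the knockout arm, against 9.47, 6.28, 0.954 and 0 normalised counts in wild-type libraries 1 to 4. Its 16 wild-type reads came almost wholly from libraries 1 and 2. Against a floor of 3 reads over the knockout arm, the wild-type mean was 4.22-fold higher, and that of libraries 1 and 2 was 7.96-fold higher. These folds leave out the counting error of the few wild-type reads and are not intervals like those of the other genes. Against libraries 3 and 4 no fold can be given, since both sides are under the floor. The log2 fold change of -2.12 was not called (the authors' deposited table, adjusted p 0.477).

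The surrogate light chain genes Vpreb1 and Igll1 differed in how well they were measured. Vpreb1, the variable-like chain (chromosome 16, 16868494 to 16869348 in mm9), had 4 reads in the knockout arm, or 1.32 normalised counts, against 32.6, 20.9, 15.3 and 26.3 in wild-type libraries 1 to 4. Every wild-type library was above the knockout mean, and the library pairs overlapped. Vpreb1 fell 9.26-fold (the authors' deposited table, adjusted p 0.0290), and its plain ratio was 18.0-fold lower with a counting interval of 6.78 to 67.2. Its close relative Vpreb2, whose reads could be confused with those of Vpreb1, had 1 read over the 4 wild-type libraries and 0 in the knockout arm.

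Igll1, the constant-like chain also known as lambda 5 (chromosome 16, 16860764 to 16864078 in mm9), had 3 reads in the knockout arm, or 0.989 normalised counts, against 13.7, 10.5, 0.954 and 0 in wild-type libraries 1 to 4. The knockout mean lay below libraries 1 and 2 and above libraries 3 and 4, so its direction depended on which wild-type libraries were used. The plain ratio was 6.35-fold lower against all 4 libraries, with a counting interval of 1.83 to 31.3. The log2 fold change of -1.94 was not called (the authors' deposited table, adjusted p 0.448).

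The signalling chains of the receptor stood apart from each other in level. Cd79b (chromosome 11, 106172655 to 106175843 in mm9) was at 316 normalised counts in the knockout arm, against 1038, 973, 1294 and 1241 in wild-type libraries 1 to 4. All 4 wild-type libraries were well above the knockout mean. The plain ratio was 3.60-fold lower with a counting interval of 3.37 to 3.88. Cd79b was not called (the authors' deposited table, log2 fold change -1.85, adjusted p 0.208), although it is the best counted of the 10 genes.

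Cd79a (chromosome 7, 25682530 to 25687216 in mm9) was at 32.0 normalised counts in the knockout arm, against 42.1, 10.5, 21.0 and 14.1 in wild-type libraries 1 to 4. The knockout mean lay within the wild-type range. The plain ratio was 1.46-fold higher, with a counting interval of 1.09 to 1.996 that leaves out the difference between wild-type libraries. The log2 fold change of 0.59 was not called (the authors' deposited table, adjusted p 0.885). Library 1 stood above library 2, with which it was paired.

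Blnk (chromosome 19, 41003417 to 41069025 in mm9), the adaptor, stood at 3.30 normalised counts in the knockout arm, against 36.8, 48.2, 55.3 and 51.7 in wild-type libraries 1 to 4. The wild-type libraries agreed well and none came near the knockout mean. Blnk fell 10.5-fold (the authors' deposited table, adjusted p 0.0129), and its plain ratio was 14.6-fold lower with a counting interval of 7.79 to 31.0. Counting intervals here and above do not cover variation between animals or between knockout libraries, which were not examined singly, and PCR copies are not independent molecules.

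The knockout mean lay below both wild-type library pairs for 8 of the 10 genes, where 43.3% of all tested features did so. Against all 4 single libraries the number was 7 of 10, where 37.9% of tested features did so.

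**Figure D2:**
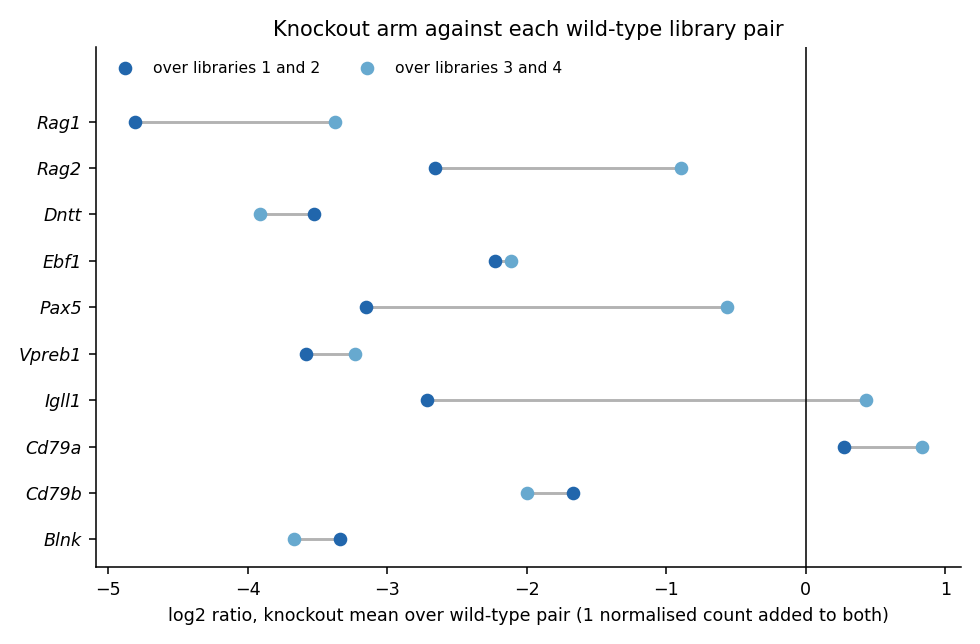
The log2 ratio of the knockout mean to libraries 1 and 2 (dark blue) and to libraries 3 and 4 (light blue), with 1 normalised count added to both sides, for each gene. Points left of the vertical line are lower in the knockout arm; Igll1 is the gene whose points lie on both sides, at -2.72 and 0.43.

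Several of these genes are neighbours in the genome. Rag2 and Rag1 face each other tail to tail on chromosome 2, 5.725 kb apart, with no feature of the table between them. Igll1 and Vpreb1 lie 4.415 kb apart on chromosome 16 in the same direction. Blnk and Dntt start 34.7 kb apart on chromosome 19 and point away from each other, with 2 noncoding features of few reads between them, AK040231 and AK082813. Of these 3 pairs, Blnk and Dntt were the one in which both genes were called. Better-counted genes nearby were not called in the authors' deposited table. Near Rag1 these were B230118H07Rik, 9.267 kb away at -1.31 on the log2 scale, and Traf6, 28.9 kb away at 0.76. Beside Vpreb1, Top3b had -1.10, and beside Blnk, Zfp518a had -1.74, in the authors' deposited table.

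Levels can be compared between genes only per length, so normalised counts were divided by exon length. In wild type Cd79b stood far above the rest at 954 ± 156 normalised reads per kb (SD over the averages of the 2 library pairs, n = 2, as for the values that follow). Dntt came next at 55.4 ± 10.4 per kb. Neither of them overlapped its lower neighbour in any library. Vpreb1 followed at 31.0 ± 5.53 per kb, Blnk at 23.1 ± 3.74, Cd79a at 16.6 ± 4.67 and Igll1 at 7.24 ± 9.46. Rag1 was at 3.68 ± 2.49 per kb, Pax5 at 3.49 ± 4.37, Rag2 at 2.503 ± 2.16 and Ebf1 at 2.24 ± 0.156. From Vpreb1 down, each gene overlapped the next in its range over libraries, so that part of the order is not fixed by these data. Of the features with at least 1 wild-type read, 82.3% had a lower level per kb than Cd79b, 47.0% a lower one than Dntt and 18.9% a lower one than Ebf1. In the knockout arm the level per kb was 265 for Cd79b and 24.2 for Cd79a, while for Dntt it was 3.73.

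**Figure D3:**
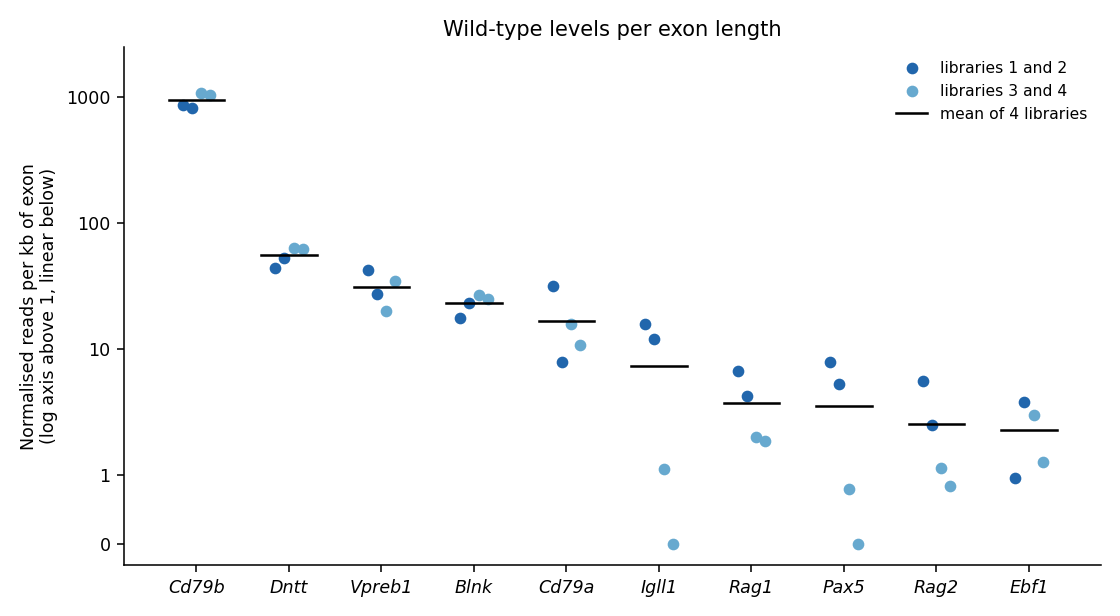
Wild-type level of each gene in normalised reads per kb of exon (vertical axis, logarithmic above 1 and linear below), with 1 circle per library, dark for libraries 1 and 2 and light for libraries 3 and 4, and a bar for the mean. Cd79b and Dntt stand apart, while the genes from Vpreb1 to Ebf1 overlap their neighbours.

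The wild-type libraries themselves fell into pairs, and this bears on the scarce members. Over all features, chi-square per degree of freedom had a median of 7.59 across the 4 libraries, 0.766 between libraries 1 and 2 and 0.685 between libraries 3 and 4. Counting noise alone gives medians of 0.789 across 4 libraries and 0.455 between 2. Between libraries 3 and 4, 1.63% of features were called different, and none of the 9 tested genes was. A chi-square test of homogeneity on counts, adjusted by the Benjamini-Hochberg method over 19285 features, called 5 of the 9 genes with enough reads different across the 4 libraries, where 70.4% of all features were called. Pax5, with under 20 reads, was not tested.

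The genes that differed across libraries did so in both directions. Rag1 averaged 12.8 normalised counts in libraries 3 and 4 against 36.2 in libraries 1 and 2 (adjusted p 2.4e-06 by the chi-square test), and Rag2 3.32 against 13.7 (0.000233). Igll1 averaged 0.477 in libraries 3 and 4 against 12.1 in libraries 1 and 2 (adjusted p 3.8e-05), and Pax5, untested, 0.477 against 7.87. Cd79b went the other way, with 1268 in libraries 3 and 4 against 1005 in libraries 1 and 2 (adjusted p 2.4e-08). For Dntt, Vpreb1, Ebf1 and Blnk the same test did not pass its threshold, with adjusted p of 0.0960, 0.0714, 0.176 and 0.443, although Dntt passed (0.0320) when shares were expected from size factors in place of library totals, a setting under which 71.2% of all features were called.

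Cd79a also differed within a pair, with 42.1 normalised counts in library 1 and 10.5 in library 2 (adjusted p 0.00340 by the chi-square test between these 2 libraries, where 1.55% of features were called). The mature B cell marker Ms4a1, named after its values were seen, had a like imbalance, at 38.9 in library 1 against 8.37, 8.59 and 11.3 in libraries 2 to 4.

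Marker genes of other cells were read beside these results. For every count of called markers below, the shares over all tested features were 3.7% lower and 3.15% higher. Mature B cell markers summed to 28070 normalised counts in the knockout arm, against 11894 to 14741 in the wild-type libraries, and most of that sum was Cd74, which HSCs also express. Of the 12 mature B cell markers, 2 fell in the authors' deposited table and 0 rose, and Ms4a1 was at 0 reads in the knockout arm. The other marker that fell was Igj, the joining chain of secreted antibody, at 22.4 in the knockout arm, against 316, 310, 1150 and 1188 in libraries 1 to 4.

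The immunoglobulin heavy chain locus itself, counted as 1 feature named Igh and chosen after its values were seen, had 20.4 normalised counts in the knockout arm, against 591, 474, 3300 and 3290 in wild-type libraries 1 to 4. It fell by 6.48 on the log2 scale (the authors' deposited table, adjusted p 2.3e-07). Igh and Igj were thus higher in libraries 3 and 4 than in libraries 1 and 2, as Cd79b was, while Rag1, Rag2, Igll1 and Pax5 were lower there.

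Neutrophil markers summed to 29315 in the knockout arm, against 9961 to 48716 in the wild-type libraries, with the high values in libraries 1 and 2, and 0 of 7 were called. T cell markers summed to 771 in the knockout arm and 502 to 573 in wild type, with 0 of 7 tested genes called and Cd3e at 0 reads in the knockout arm. Most of that sum was the kinase gene Lck, at 742 in the knockout arm against 403 in wild type, while 6 of the 7 tested genes had a negative log2 fold change and the median was -1.93. Of 7 plasmacytoid dendritic cell markers, 6 were tested and 1 fell, Ccr9. They summed to 18325 in the knockout arm, against 14315 to 14585 in the wild-type libraries. Siglech and Klk1 were at 0 reads in the knockout arm, but Klk1, the untested gene, had only 4 reads over the wild-type libraries. Siglech was at 0 in libraries 1 and 2 as well, and at 5.72 and 12.2 in libraries 3 and 4. Erythroid markers summed to 464 in the knockout arm, against 5743 to 8064 in wild type, and 6 of 7 fell. Stem cell markers summed to 135881 in the knockout arm, against 133738 to 167259 in wild type, and 0 of 8 were called. The part of these other transcripts in the results on the 10 genes was not tested. Dnmt3a itself was at 8423 in the knockout arm, against 8229, 8569, 5400 and 5208 in the wild-type libraries, and its log2 fold change of 0.30 was not called (the authors' deposited table, adjusted p 0.952). Since the deleted part is not known, a whole-gene count checks nothing here.

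Regulators that act around or upstream of the 10 genes were called in both directions. Of 25 early lymphoid and B cell regulators, 3 fell and 2 rose in the authors' deposited table and 20 were not called. Over all tested features, 3.7% were called lower and 3.15% higher. The median log2 fold change of the 25 regulators was -0.37. Il7r, the interleukin 7 receptor chain that B cell progenitors need, had 0 reads in the knockout arm, against 23.1, 29.3, 112 and 105 normalised counts in libraries 1 to 4 (the authors' deposited table, adjusted p 7.2e-05). Pou2af1, the Oct coactivator of B cells, was at 0.659 in the knockout arm, against 23.1, 12.6, 34.3 and 28.2 (the authors' deposited table, adjusted p 0.0137). Ikzf3, the Ikaros family factor Aiolos, was at 2.31 in the knockout arm, against 11.6, 22.0, 63.0 and 88.3 (the authors' deposited table, adjusted p 0.00578).

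The members of that list that rose were Lef1 and Irf4. Lef1, a Wnt pathway transcription factor, was at 40.9 in the knockout arm, against 4.21, 1.05, 2.86 and 4.70 in libraries 1 to 4 (the authors' deposited table, adjusted p 0.0184). Irf4, named after its values were seen, was at 239 in the knockout arm, against 53.6, 40.8, 31.5 and 31.9 (the authors' deposited table, adjusted p 0.0485). The best counted member, the progenitor factor Myb, was at 13650 in the knockout arm, against 19925 to 28146 in wild type, and was not called. Tcf3, an E protein gene, and Ikzf1, the founding Ikaros gene, were not called either, with log2 fold changes of -0.42 and -1.20 in the authors' deposited table.

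Of 20 genes of antigen receptor signalling, 1 fell, 0 rose and 19 were not called, where 3.7% of all tested features fell and 3.15% rose. The median log2 fold change of the 20 genes was -0.60. Dapp1, an adaptor and the best counted gene of that list, was at 6370 in the knockout arm, against 24842 to 31185 in wild type, and was not called (adjusted p 0.114). The kinases Syk and Btk, which act directly beside Blnk, had log2 fold changes of -1.57 and -1.19 and were not called in the authors' deposited table.

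Of 18 end-joining enzymes and recombination partners, 0 were called in either direction, where 3.7% of all tested features were called lower and 3.15% higher. The authors' deposited table gives adjusted values only, and the median log2 fold change of the 18 genes was -0.76. All 18 had a higher wild-type mean count than each of the 10 genes other than Cd79b, and the lowest of them, Nhej1, was at 167 normalised counts in the knockout arm and 176 in wild type. Parp1, the best counted, was at 7537 in the knockout arm, against 15184 to 15510 in wild type. Hmgb2, a cofactor of the recombinase, was not called at -2.03 on the log2 scale (the authors' deposited table, adjusted p 0.144). Of the surrogate light chain relatives, Vpreb3 was at 1.65 in the knockout arm, against 2.10, 6.28, 8.59 and 9.39 in libraries 1 to 4, and was not called, and Vpreb2 was not tested by the authors.

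**Figure D4:**
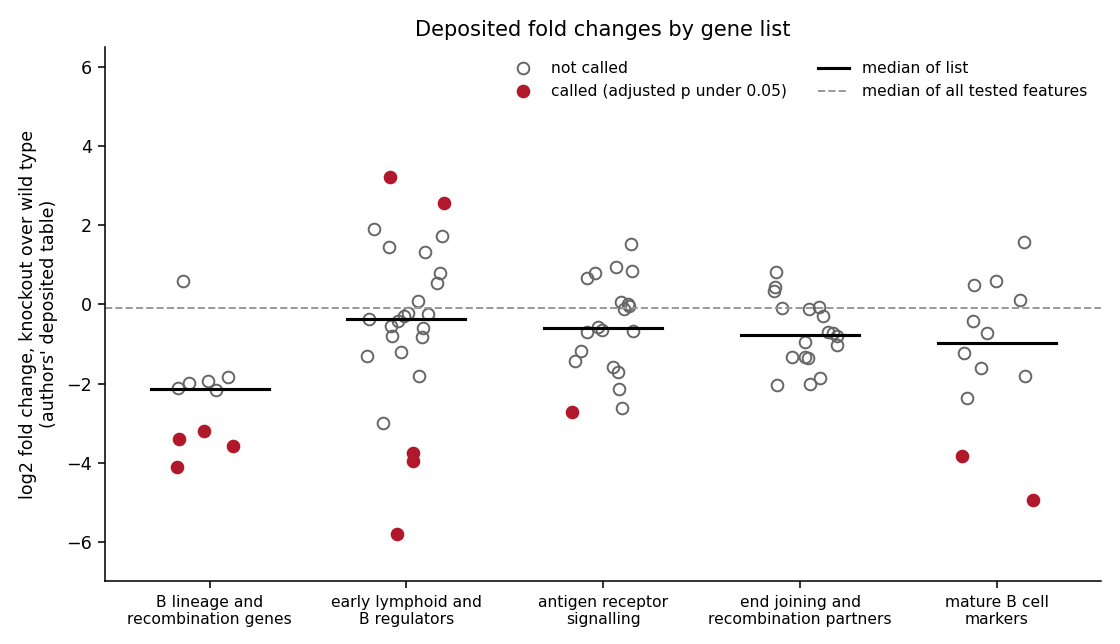
The log2 fold changes of the authors' deposited table (vertical axis, knockout over wild type) for the 10 genes and for 4 related lists, each circle a gene, filled in red where the adjusted p was under 0.05, with a bar at each list's median and a dashed line at the median of all tested features. Among the lists shown, the 10 genes have the lowest median, -2.14, and the early lymphoid and B regulators hold called genes in both directions. The erythroid markers, not shown, had a lower median, -4.98.

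Over the 4 wild-type libraries and the knockout mean, the genes whose centred log2 profile lay nearest to that of Cd79b, the member with the most reads, were Lancl2, Adck2 and Mmgt2, at Euclidean distances of 0.068, 0.079 and 0.083 among 12609 genes. The genes nearest to Rag1, the member with the largest deposited log2 fold change, were Mx1, Cd244 and Rian, at 0.356, 0.508 and 0.536. Mx1, an interferon-induced antiviral gene, stood at 5.60 normalised counts in the knockout arm, against 179, 161, 72.5 and 64.8 in libraries 1 to 4. These distances rest on 5 values that fall into few separate levels.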

How the data were processed

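RNA from freshly sorted wild-type and Dnmt3a-KO HSCs was extracted with a Qiagen RNeasy Micro kit, selected for polyA and made into TruSeq RNA libraries, per the labels' protocols. The authors deposited raw read counts per feature for each wild-type library. Per the submitters' processing notes the build was mm9 and DESeq was used, with neither role nor version stated. For the aligner and the annotation, the sources used here give no name. The authors deposited a length-scaled signal under an FPKM heading, which is the count per kb over a constant of 50 in every library, and it was used only for exon length. The authors' deposited log2 fold change is knockout over wild type. The reason is that it exceeded log2 of the plain ratio by 0.399 in 8750 well-counted features (SD 0.0012). That offset placed the knockout mean, deposited as a count averaged over 4 libraries, on the wild-type scale. The deposited p-value was taken to be adjusted, because 9561 of 13089 well-counted features have one that recurs elsewhere and 1549 values equal 1. Another 8 per-library columns match no sample here and were left out.

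Size factors by the median-of-ratios method were 0.951, 0.955, 1.05 and 1.06 for libraries 1 to 4, and counts were divided by them. No test between genotypes was run here: calls are the authors', at an adjusted p under 0.05. Agreement of libraries was tested by chi-square against library totals for features of at least 20 reads, and this step was tested on simulated data. Ratios have exact conditional binomial 95% intervals, and a floor of 3 counts stands for 0 reads. Named genes were the 10 members, up to 4 called genes per list and its best counted gene, marker lists and the nearest profiles. Some genes outside this rule are marked where they stand. Others are not marked, among them Tcf3, Ikzf1, Syk, Btk, Hmgb2 and Nhej1. Single values of 2 list genes are not reported here. The members and lists were chosen with earlier results of these data known. Alternatives covered thresholds, libraries, added counts and scaling, including edgeR 4.0.16 TMM factors. Python 3.11.15, SciPy 1.17.1, pandas 2.3.3 and R 4.3.3 were used.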

Additional observations from a re-analysis of the deposited data

Results flagged for a closer look

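The summed normalised count of the 25 early lymphoid and B cell regulators was 119270 in wild-type library 3, while the other libraries lay between 117253 and 117534, so that library 3 stood far from the rest relative to the spread of the 4. The whole range is small beside the sum. Of 20 such sets of 4 values looked at, 1 was far enough out, and chance gives about 1 in 20.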

How the results depend on the processing

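The number of the 10 genes that fell was 4 with no minimum level, 2 at an adjusted p under 0.01 (Rag1 and Dntt) and 1 (Dntt) with a mean of at least 50 normalised counts. No gene was called higher under any of these 3 settings, by the authors' deposited table. The median log2 fold change of -2.14 over all 10 genes became -3.30 over the 6 genes with a mean of at least 10, a subset that the level itself selects. The median log2 ratio of means, -2.27, ran from -2.53 to -2.10 when each wild-type library was left out in turn, and was -2.93 against libraries 1 and 2 alone. For single genes, 170 of 180 recomputed values moved by less than the spread between libraries and 10 moved by more, 5 of them with 5 counts added before the log. The log2 ratio of Igll1 changed sign, to 0.43, against libraries 3 and 4 alone, and that of Pax5 shrank to -0.56, that of Rag2 to -0.90 and that of Rag1 to -3.37 there, where these genes had few reads. No paired analysis was possible because the knockout arm enters as 1 mean with no library numbers. Depth limits Rag2, Ebf1, Pax5 and Igll1 most, each with under 40 wild-type reads.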
